A study of Mus musculus with 36 samples.

Results

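Rag1, Rag2 and Dntt, the genes for the V(D)J recombinase and for terminal deoxynucleotidyl transferase, were followed through all conditions of a mouse study of the deacetylase SIRT7 and the transcription factor Pax5. The 3 genes were found by symbol in each of the 3 RNA-seq tables, which list 46078, 35896 and 18721 genes, and all 3 passed the filter on low values in every table. Pax5 peaks were taken over each gene body and the 10 kb upstream of its start in 6 ChIP-seq peak lists from Pax5-/- pro-B cells transduced with retroviruses for 1 of 3 forms of Pax5, with 2 lists a form. The peak names of the list deposited for K198R replicate 2 carry the number 3, unlike those of the other 5 lists, which carry their own replicate number, and the list is used here as deposited.

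V(D)J recombination assembles the variable part of antigen receptor genes from separate gene segments, first at the heavy chain locus in pro-B cells and then at the light chain loci in pre-B cells. Rag1 and Rag2 encode the subunits of the recombinase that cuts the DNA, with Rag1 carrying the catalytic site and Rag2 binding modified histone H3 and stabilising the complex. Dntt encodes TdT, which adds bases without a template to the cut ends before the end joining machinery closes them, and in mice its expression is known to end at the pre-B cell stage.

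The sorted cells came from the bone marrow of adult wild-type and Sirt7-/- mice on the 129Sv background, the latter with a germline deletion of several Sirt7 exons in all tissues. Each genotype gave 2 libraries of pro-B cells and 2 of pre-B cells, sorted by surface markers that included B220 (present) and IgM (absent), with CD43 present on the pro-B and absent from the pre-B cells. Libraries are numbered 1 and 2 in each group. Within a genotype the sample descriptions give the pro-B and the pre-B library of a number 1 shared identifier, and the study's methods count each mouse as a replicate, so these libraries were taken as pairs from 1 mouse. The methods also place replicates of a sequencing experiment on separate days, and for this reason fits with the mouse or the replicate number as a block are given beside the results whose call they change. Another table holds Pax5-/- cells transduced with an empty retroviral vector (EV), with wild-type Pax5 (Pax5WT), or with Pax5 in which a lysine was replaced by glutamine (K198Q), which resembles acetylated lysine, or by arginine (K198R), which cannot be acetylated. The table of cultured pro-B cells holds wild-type cells with EV and Sirt7-/- cells with EV, Pax5WT or K198R. Cells of these tables were grown on OP9 stroma with IL-7, SCF and FLT3 ligand, and every group of the 3 tables had 2 libraries. The labels call the Pax5-/- cells bone marrow pro-B cells, whereas the study's methods describe fetal liver progenitors of C57BL/6 mice. Because the vectors add Pax5 to cells that differ in origin and genotype, and because the tables were normalized separately, levels are compared only within a table. Between 2 groups of 2 libraries without a difference, a lack of overlap in either direction has a probability of 0.333. The share of all genes without overlap is not given, so a lack of overlap is read as a description only.

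In the sorted cells the source labels put every replicate 1 at the pro-B and every replicate 2 at the pre-B stage, which disagrees with the sample titles in 4 of 8 libraries. The titles were used, and stage markers followed them in 8 of 8 libraries. Il2ra, the IL-2 receptor chain that marks pre-B cells, lay between 16329 and 26038 normalized counts in the libraries titled pre-B and between 1593 and 3760 in those titled pro-B. Igll1, a surrogate light chain gene of pro-B cells, lay between 494 and 4122 and between 22752 and 29529. Sirt7 itself was at 2692 and 2533 normalized counts in wild-type and at 363 and 366 in Sirt7-/- pro-B cells, and at 5613 and 5219 against 1066 and 821 in pre-B cells. In the cultured pro-B cells Sirt7 was at 1324 and 905 with wild-type EV and between 325 and 407 in the 6 Sirt7-/- libraries.

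Rag1 and Rag2 are neighbours on chromosome 2 that are transcribed towards each other. In GENCODE M21 (GRCm38, the build the files use) Rag1 spans chr2:101638282-101649501 on the minus strand and Rag2 chr2:101624718-101632529 on the plus strand, 5.75 kb apart. Dntt lies at chr19:41029275-41059525 on the plus strand. Another gene, B230118H07Rik, runs across both Rag genes on the minus strand and shares 80 bases of exon with Rag1 and 208 with Rag2. The libraries mark the strand of the RNA, but how the counting treated this overlap is not given in the sources used here.

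Of the regions with Pax5 peaks around these genes 4 are printed, because the binding values below refer to them. The Rag2 promoter, an intron of Rag1 near its start and a region 25.7 kb upstream of Rag2 had a peak in all 6 lists, and an intron of Dntt had one in 5. Each window holds 201 bases of the plus strand, and capitals mark the stretch between the outermost peak summits of the lists, ended at the last base before the RefSeq start in the case of Rag2.

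Rag2 promoter, chr2:101624511-101624711: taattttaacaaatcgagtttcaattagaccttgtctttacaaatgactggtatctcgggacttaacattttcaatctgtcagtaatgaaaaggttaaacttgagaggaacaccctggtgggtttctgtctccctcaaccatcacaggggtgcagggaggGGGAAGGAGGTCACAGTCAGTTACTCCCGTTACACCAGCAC

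Rag1 intron, chr2:101648504-101648704: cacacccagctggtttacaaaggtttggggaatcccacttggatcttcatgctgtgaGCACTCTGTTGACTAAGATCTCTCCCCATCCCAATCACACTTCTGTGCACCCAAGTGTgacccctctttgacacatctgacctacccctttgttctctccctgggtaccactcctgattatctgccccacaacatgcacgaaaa

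upstream of Rag2, chr2:101598892-101599092: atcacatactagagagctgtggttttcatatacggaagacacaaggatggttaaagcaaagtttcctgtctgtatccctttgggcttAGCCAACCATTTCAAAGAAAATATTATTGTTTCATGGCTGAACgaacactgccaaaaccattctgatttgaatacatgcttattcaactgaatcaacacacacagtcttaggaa

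Dntt intron, chr19:41039210-41039410: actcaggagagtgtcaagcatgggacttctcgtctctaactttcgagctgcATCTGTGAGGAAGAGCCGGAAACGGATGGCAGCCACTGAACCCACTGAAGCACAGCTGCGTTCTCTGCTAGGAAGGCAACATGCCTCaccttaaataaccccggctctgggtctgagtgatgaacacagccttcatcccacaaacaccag

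Letters of the Pax5 motif were searched on both strands, GCNTGAC and the shorter GTGACC, the latter chosen after these sequences had been seen. GTGACC matched at bases 169 to 174 of the Rag2 promoter window, on the minus strand and within the capitals, and at bases 114 to 119 of the Rag1 intron window, on the plus strand. GCNTGAC matched at bases 13 to 19 of the Dntt intron window, on the minus strand and outside the capitals. Neither matched in the window upstream of Rag2. Around all summits of the list of Pax5WT replicate 1, 14.26% of 10639 windows of the same length held GTGACC and 15.93% held GCNTGAC, against 8.676% and 5.744% of windows 5 kb away.

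Between pro-B and pre-B cells the 3 genes took different courses, and per kilobase of the longest transcript their order changed. In wild-type pro-B cells Dntt had the highest mean level, 10859 ± 2456 normalized counts per kb (SD, n = 2), followed by Rag1 at 3049 ± 942 and Rag2 at 2742 ± 771. The Rag genes did not differ beyond their spread at this stage. At the pre-B stage of wild type the order was Rag1 at 9461 ± 1840, Rag2 at 3001 ± 706 and Dntt at 67.6 ± 8.87 per kb, with no overlap between genes. By normalized count Rag1 ranked 80th among the 46078 genes of the table in wild-type pre-B cells, and Dntt went from rank 294 in pro-B to rank 11043 in pre-B cells. As these are bulk samples, fewer cells that express a gene and less RNA per cell cannot be told apart.

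**Figure D1:**
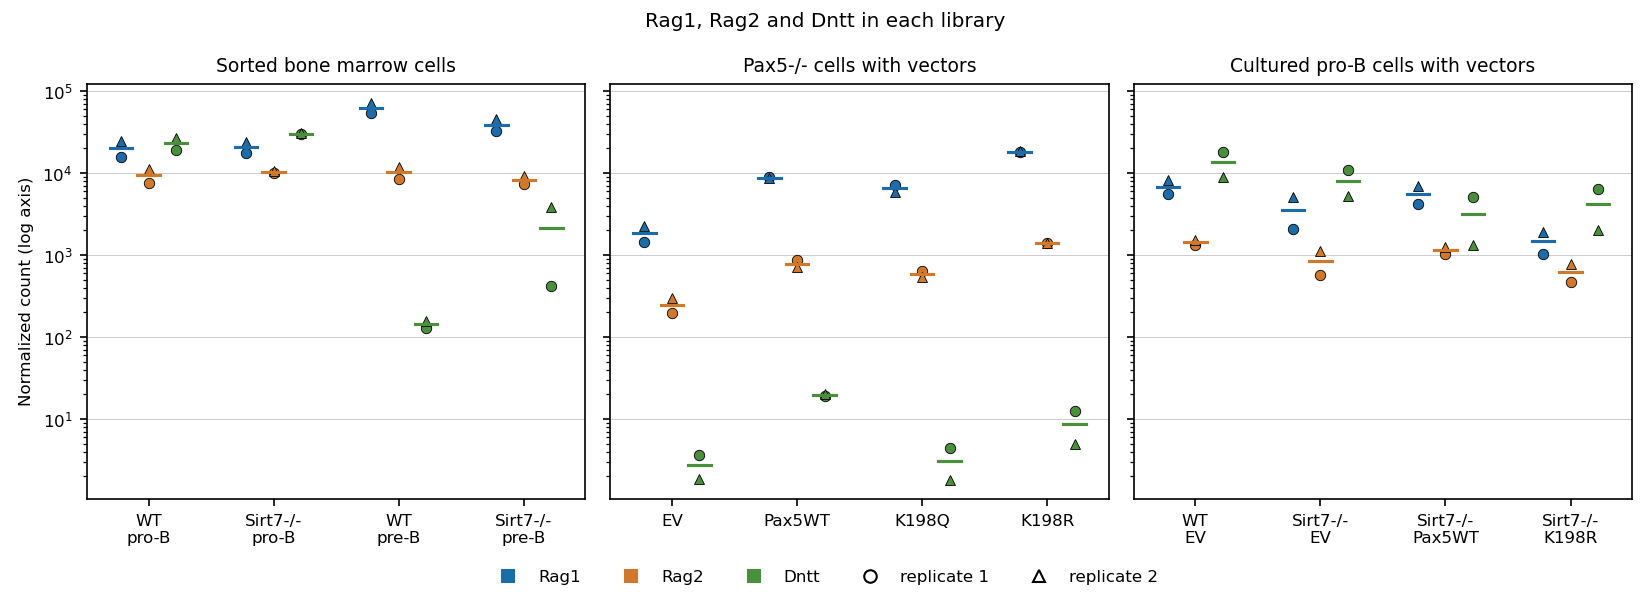
Normalized counts of Rag1, Rag2 and Dntt (log axis) in each of the 24 libraries, by table and group; points are libraries and bars are group means of 2. Rag1 is highest in wild-type pre-B cells (mean 62517), Dntt falls to a mean of 144 there, and Dntt stays between 1.79 and 20.3 in all Pax5-/- libraries.

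Rag1, the catalytic subunit, rose towards the pre-B stage in both genotypes. Wild-type pro-B cells held 15744 and 24546 normalized counts, and wild-type pre-B cells 53919.5 and 71115. Sirt7-/- pro-B cells held 17487.5 and 23795, and Sirt7-/- pre-B cells 32407 and 45261. The stages did not overlap in either genotype, and between libraries of the same number the log2 change was 1.78 and 1.53 in wild type and 0.89 and 0.93 in Sirt7-/-. The limma estimate was 1.66 (SE 0.276, adjusted p = 0.00358) in wild type, where 40.2% of the 17649 genes tested were called, 18.1% as higher in pre-B cells and 22% as lower. In Sirt7-/- cells it was 0.91 (SE 0.276, limma adjusted p = 0.0406), where 35.7% were called, 16.5% as higher and 19.2% as lower. The Sirt7-/- call was lost when libraries were scaled to the same total (0.81, limma adjusted p = 0.0530). Without any 1 of its 4 libraries the Sirt7-/- estimate lay between 0.67 and 1.15. Those fits leave 1 library in a group, so no call is read. Over both genotypes the 4 pre-B libraries differed from the 4 pro-B libraries by 1.28 on average, with an exact two-sided permutation p of 0.0286, the smallest that 4 libraries against 4 allow, and 0.0429 after adjustment over the 3 genes. That test leaves the pairs aside, and the exact sign-flip test over the 4 mice gave p = 0.125, the smallest it allows, with an increase in 4 of 4 mice.

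Rag2, the partner subunit, passed the test between stages in neither genotype unless the mouse was a block. It was at 7524 and 11255.5 in wild-type pro-B cells and at 8565 and 11984 in wild-type pre-B cells. Among Sirt7-/- cells it was at 10073 and 10502 in pro-B and at 7301 and 9205 in pre-B cells. The wild-type stages overlapped, and the Sirt7-/- pre-B libraries lay below both pro-B libraries. The limma estimates were 0.14 (SE 0.233, adjusted p = 0.671) in wild type and -0.33 (SE 0.233, adjusted p = 0.315) in Sirt7-/-. With the mouse as a block the Sirt7-/- difference was called (limma adjusted p = 0.0469), where 38.5% of genes were, and the wild-type one was not (limma adjusted p = 0.287). Over both genotypes the difference was -0.09 (exact permutation p = 0.629 for 4 libraries against 4), and the pre-B library was the higher one in 2 of 4 pairs of the same number.

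The Rag1 to Rag2 ratio moved with Rag1. Per kilobase it was 1.08 and 1.13 in wild-type pro-B libraries, 0.900 and 1.17 in Sirt7-/- pro-B, 3.26 and 3.07 in wild-type pre-B, and 2.30 and 2.55 in Sirt7-/- pre-B libraries. All 4 pre-B values lay above all 4 pro-B values, and the genotypes overlapped at the pro-B stage but not at the pre-B stage. The overlapping gene B230118H07Rik also rose between stages, by 1.23 in wild type (limma adjusted p = 0.00198) and 0.57 in Sirt7-/- (limma adjusted p = 0.0441). Traf6, a signalling adaptor and the next gene beyond Rag1, rose by 1.06 (limma adjusted p = 0.000196) and 0.76 (limma adjusted p = 0.000767).

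**Figure D2:**
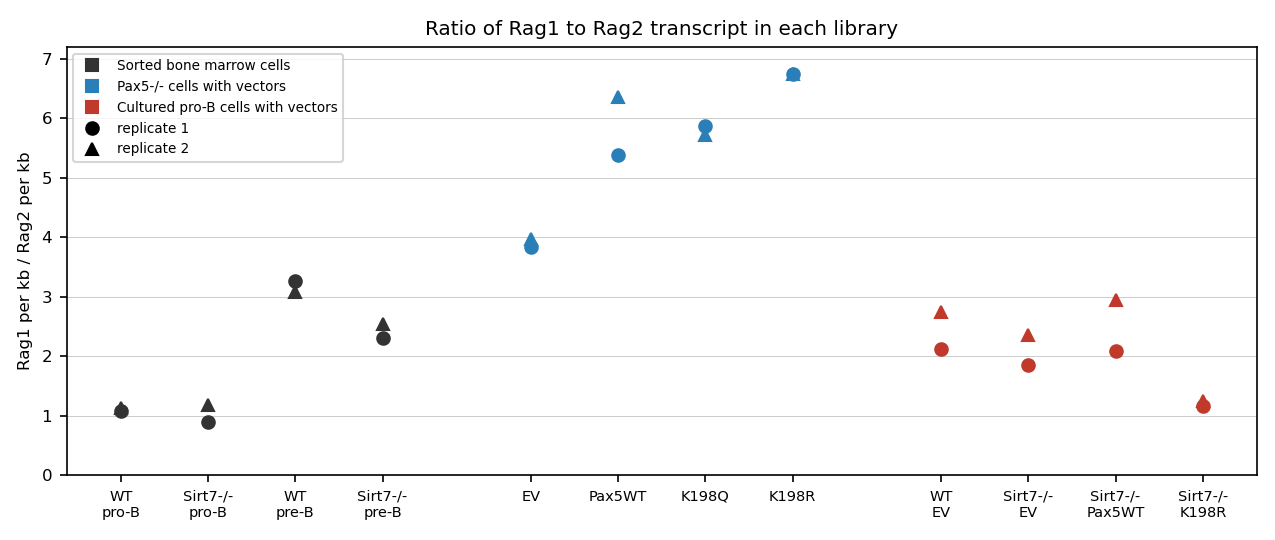
Rag1 to Rag2 ratio per kilobase of transcript in each of the 24 libraries; each point is 1 library, and the tables were normalized separately. The ratio is between 0.900 and 1.17 in sorted pro-B cells, between 2.30 and 3.26 in pre-B cells and between 3.84 and 6.75 in Pax5-/- cells.

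Dntt fell at the pre-B stage in both genotypes. Wild-type pro-B cells held 19431.5 and 26828 normalized counts of it, and wild-type pre-B cells 131 and 157. Sirt7-/- pro-B cells held 30149 and 30749.8, and Sirt7-/- pre-B cells 423 and 3838. Relative to the pro-B library of the same number, wild-type pre-B cells held 0.673% and 0.587% of the level and Sirt7-/- pre-B cells 1.40% and 12.5%. The limma estimates were -7.30 (SE 0.871, adjusted p = 0.000945) in wild type and -4.58 (SE 0.871, adjusted p = 0.00771) in Sirt7-/-. Without any 1 library they were -7.54 to -7.07 and -6.17 to -2.99, in fits that leave 1 library in a group. Over both genotypes the difference was -5.94, lower in 4 of 4 pairs of the same number, with an exact permutation p of 0.0286 and 0.0429 after adjustment, and an exact sign-flip p of 0.125 over the mice.

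**Figure D3:**
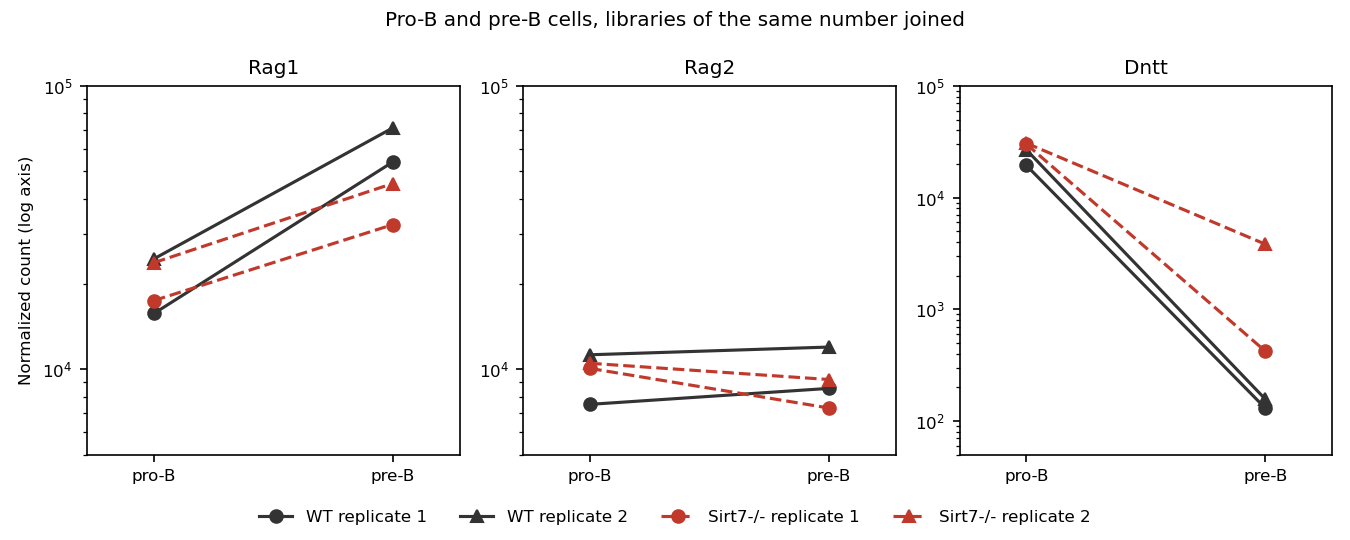
Normalized counts (log axis) of the 3 genes in pro-B and pre-B cells, each line joining the libraries of the same genotype and number. Rag1 rises along all 4 lines, Rag2 changes by 0.19 or less on the log2 scale in wild type and by -0.46 and -0.19 in Sirt7-/-, and Dntt falls in all 4.

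At the pro-B stage, loss of Sirt7 came with no called difference in Rag1, Rag2 or Dntt. The limma estimates, Sirt7-/- minus wild type, were 0.05 for Rag1 (95% interval -0.60 to 0.71), 0.16 for Rag2 (-0.39 to 0.71) and 0.42 for Dntt (-1.65 to 2.48). Their limma adjusted p lay between 0.981 and 0.999, and 0.0623% of genes were called. The Dntt libraries of the genotypes did not overlap, with both Sirt7-/- values above both wild-type values, whereas those of Rag1 and Rag2 did.

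In pre-B cells Rag1 was lower and Dntt higher in both Sirt7-/- libraries than in both wild-type libraries, but neither difference was called by limma. The study, which used DESeq2, names Rag1 among the genes that differed in this comparison at a false discovery rate under 0.05. Rag1 differed by -0.69 (SE 0.276, limma adjusted p = 0.340), Rag2 by -0.31 (SE 0.233, limma adjusted p = 0.608, with overlapping groups) and Dntt by 3.14 (SE 0.871, limma adjusted p = 0.208), where 0.085% of genes were called. Traf6 and B230118H07Rik differed by -0.44 and -0.72 and were not called either (limma adjusted p = 0.116 and 0.177). DESeq2 on the whole reads gave 3.88 for Dntt with an adjusted p of 0.00487, and edgeR gave 3.90 with 0.185. Of all genes DESeq2 called many more than limma in this comparison and edgeR fewer, as counted further on. Without replicate 2 of the Sirt7-/- pre-B cells the Dntt difference was 1.55, and without replicate 1 it was 4.73. Each of these fits leaves 1 library in that group and takes its spread from the other groups, so no call is read. The difference between genotypes in the stage change was -0.75 for Rag1, -0.47 for Rag2 and 2.73 for Dntt (limma adjusted p between 0.909 and 0.959), where 0.00567% of genes were called. For Dntt this difference was 4.32 without replicate 1 of the Sirt7-/- pre-B cells and 1.14 without replicate 2, again with 1 library left in that group.

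Replicate 2 of the Sirt7-/- pre-B cells stood apart in more than Dntt. The 4 pro-B markers summed to 15280 normalized counts in it, against 6261, 7630 and 8449 in the other pre-B libraries. Of these, Spn, the gene of the sorting marker CD43, was at 7600, against 5442, 6278 and 6123 in the same order. Igll1 was at 4122, against 494, 926 and 1324. Relative to the pro-B library of the same number, replicate 2 held 16.6% of the level of Kit, the stem cell factor receptor, 16.9% of Igll1, 15.7% of Vpreb1, its surrogate light chain partner, and 23.8% of Thy1, whereas the other 3 pre-B libraries held between 1.03% and 4.56% of these genes. The 18 cell cycle genes summed to 220936 in it, against 109913 to 151578, the 5 erythroid markers to 44921, against 3193 to 5528, with Hba-a1 the most abundant, and the 15 T cell markers to 4510, against 3290 to 3743, with Cd3e at 0 in all 4 pre-B libraries. The pro-B library of the same mouse also stood apart in the erythroid markers, at 25910 against 7616 to 11040 in the other pro-B libraries. The 7 NK cell markers summed to 789 in the pre-B library of this mouse, against 157 to 365 in the other pre-B libraries. In its pro-B library they summed to 1246, against 522 to 665, and the 8 myeloid markers to 9531, against 24513 to 33570. The mature B markers were higher in both Sirt7-/- pre-B libraries (208397 and 148004) than in wild type (125534 and 94455), with Ighd the most abundant in the table and none of the 5 called. The part of these in the Rag1 and Dntt differences was not tested.

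The other genes of the pathway were read from a list of 16 end joining and accessory genes. Of 15 tested, 4 rose and 5 fell towards the pre-B stage in wild type, against 18.1% and 22% of all genes, and their median log2 change was -0.20, against -0.04 over all genes. Between Sirt7-/- stages 4 rose and 5 fell (median -0.0025 against -0.04), against 16.5% and 19.2% of all genes. The fit without replicate 2 of the Sirt7-/- pre-B cells leaves 1 library in that group, so no counts are read from it. Polm, a polymerase related to TdT that fills gaps at the ends, rose by 2.44 in wild type, from 9837 and 7326 to 48526.5 and 43967, and by 2.92 in Sirt7-/- cells. Poll, another gap-filling polymerase, fell by 1.65 and by 1.25. Dclre1c, which encodes the nuclease Artemis that opens the hairpin ends, rose by 1.13 in wild-type and 0.96 in Sirt7-/- cells. Hmgb1, a DNA-bending cofactor of the recombinase, fell by 1.08 and 0.98 in the same order, the related Hmgb2 by 1.28 and 0.87, and the histone gene H2afx by 1.27 and 0.56. Each of these had a limma adjusted p between 0.000148 and 0.0101.

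Of 23 transcription factors that are known to bear on the Rag genes, 14 rose and 2 fell towards the pre-B stage in wild type, and their median was 0.56, against -0.04 over all genes. In Sirt7-/- cells 14 were higher and 1 lower (median 0.49). The shares of all genes are those given for the end joining list. With the mouse as a block 15 rose and 3 fell in wild type, where 43.1% of all genes were called. In Sirt7-/- cells 16 rose and 3 fell with the block, where 38.5% were called. Spib, an Ets family factor, rose by 1.98 and 2.06, and Ikzf3, the Ikaros family member Aiolos, by 1.57 and 1.94 in wild type and Sirt7-/-. Lef1, a factor of the Wnt pathway, fell by 2.05 and 2.08, and Gfi1b, a repressor, fell by 1.32 in wild type. Their limma adjusted p lay between 7.72e-05 and 0.0272.

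In the Pax5-/- cells Rag1 and Rag2 were higher with every form of Pax5 than with EV, in the order K198R, Pax5WT, K198Q, EV. Rag1 was at 1443 and 2289 normalized counts with EV, 8938 and 8704 with Pax5WT, 7229.8 and 5909 with K198Q, and 18291 and 18398 with K198R. No groups overlapped. Rag1 was 4.73-fold of EV with Pax5WT (log2 2.28, SE 0.199, limma adjusted p = 0.00134), 3.52-fold with K198Q (1.85, limma adjusted p = 0.00657) and 9.83-fold with K198R (3.33, limma adjusted p = 0.000137). Folds here and for Rag2 are ratios of group means, and the log2 values beside them are limma estimates. The shares of the 13345 genes called were 3.25%, 0.922% and 9.92%, and of genes called as higher 2.25%, 0.869% and 3.87%. Without K198Q replicate 1 the K198Q estimate was 1.70, in a fit that leaves 1 library in that group, so no call is read.

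Rag2 followed the same order at a lower level. It was at 195 and 298 with EV, 862 and 709 with Pax5WT, 638 and 535 with K198Q, and 1405 and 1413 with K198R. Again no groups overlapped. The folds over EV were 3.19 for Pax5WT (log2 1.69, SE 0.214, limma adjusted p = 0.00709), 2.38 for K198Q (1.27, limma adjusted p = 0.0440) and 5.72 for K198R (2.54, limma adjusted p = 0.000638). The K198Q call was lost without a filter on low values. The K198Q estimate was 0.97 without EV replicate 1, 1.15 without K198Q replicate 1 and 1.40 without K198Q replicate 2. The Pax5WT estimate was 1.55 without Pax5WT replicate 1. Such fits leave 1 library in a group, so no call is read. These comparisons share the EV libraries.

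Between the forms of Pax5, K198R gave more Rag1 than Pax5WT by a log2 difference of 1.06 (limma SE 0.199, adjusted p = 0.0366) and more than K198Q by 1.49 (limma adjusted p = 0.00858). Of all genes, 2.87% and 5.01% were called, 0.772% and 1.45% as higher with K198R. Without any 1 of its 4 libraries the difference from Pax5WT was 1.04 to 1.08, and that from K198Q was 1.34 without K198Q replicate 2. Rag2 differed by 0.85 between K198R and Pax5WT (SE 0.214, limma adjusted p = 0.0978, and 0.0455 with the block, where 7.52% were called) and by 1.27 between K198R and K198Q (limma adjusted p = 0.0181). The latter was 1.40 without K198Q replicate 1, 1.14 without K198Q replicate 2 and 1.26 without K198R replicate 2. Fits without a library leave 1 in its group, so no call is read for Rag1 or Rag2. K198Q and Pax5WT differed by -0.43 for Rag1 (95% interval -0.89 to 0.03) and by -0.42 for Rag2 (-0.92 to 0.08), neither called, where 0.0225% of genes were. The Pax5 transcript, whose counts can include the vector, differed too, and was at 2201 and 2103 with EV, 6458 and 6152 with Pax5WT, 8918 and 8963 with K198Q and 21162 and 16609.5 with K198R. K198Q and K198R both had more Pax5 transcript than Pax5WT, and K198R had the most of the 3 forms. The part of these differences in the Rag levels was not tested, and Pax5 protein was not measured in these files.

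Dntt was near the floor of 3 counts in the Pax5-/- cells. It was at 3.62 and 1.85 normalized counts with EV, 19.0 and 20.3 with Pax5WT, 4.43 and 1.79 with K198Q, and 12.5 and 4.96 with K198R. Both Pax5WT libraries lay above all others, K198Q overlapped EV, and K198R lay between Pax5WT and the highest value of EV and K198Q. The ratio of summed normalized counts, rounded to whole numbers, to EV was 7.8 for Pax5WT, 3.4 for K198R and 1.2 for K198Q. These sums are not whole reads, so no interval is given. None was called by limma without a block (log2 2.51, adjusted p = 0.1004 for Pax5WT, 1.31 and 0.297 for K198R, 0.10 and 1 for K198Q). With the replicate number as a block the Pax5WT difference passed the threshold, as did 10.1% of all genes. Dntt reached 10 counts only in both Pax5WT libraries and in K198R replicate 1, so it passed the filter through the groups where it was high, and its differences in these cells are values from which no call is read. Between the forms the log2 differences were -2.41 for K198Q against Pax5WT, -1.20 for K198R against Pax5WT and 1.20 for K198R against K198Q, without overlap and without a call (limma adjusted p between 0.429 and 0.787).

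**Figure D4:**
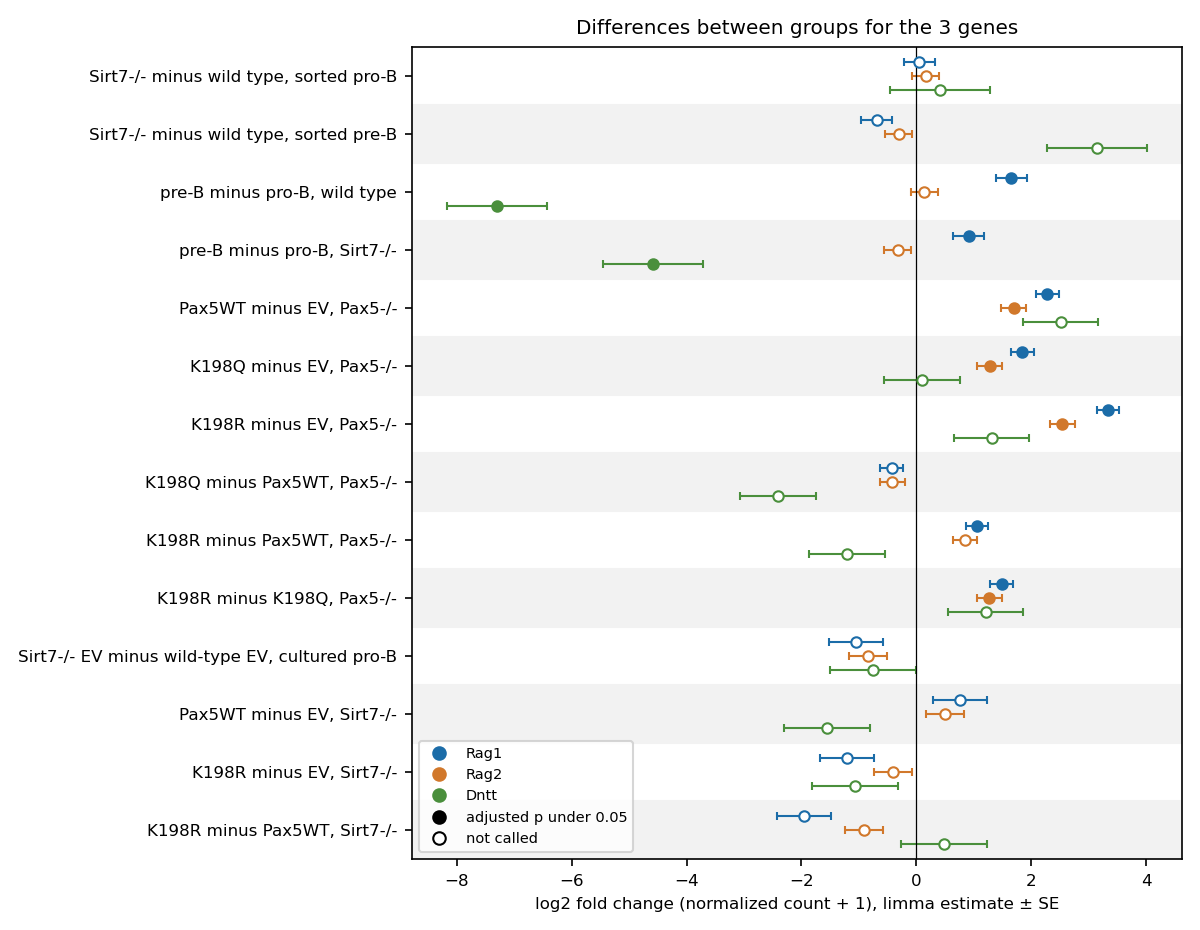
Log2 fold changes of the 3 genes from limma in each comparison, with bars for 1 SE on each side and filled points for an adjusted p under 0.05. Rag1 and Rag2 lie to the right of 0 against EV in Pax5-/- cells (1.27 to 3.33), and none of the 3 genes is called in the cultured wild-type and Sirt7-/- cells in these fits without a block.

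Of the 23 Rag regulators, 6 were higher with Pax5WT, 5 with K198Q and 9 with K198R than with EV, and none was lower, where 2.25%, 0.869% and 3.87% of all genes were called as higher. With the replicate number as a block 9, 7 and 11 were higher and 2, 0 and 1 lower, where 10.1%, 2.72% and 21.2% of genes were called. The median changes were 0.27, 0.26 and 0.28, against 0.0046, -0.0065 and 0.013 over all genes. The list includes Pax5 itself. Ikzf3 rose by 2.33, 1.64 and 3.30, Ebf1, a factor that specifies B cells together with Pax5, by 1.28, 1.02 and 1.34, and Lef1 by 1.73 with Pax5WT and 1.51 with K198Q. Irf4, a factor of pre-B cell maturation, rose by 1.56 with K198R. The limma adjusted p of these lay between 2.54e-05 and 0.0416. Lef1 was lower with K198R, differing by -1.98 from Pax5WT and by -1.77 from K198Q, and Bcl11a, a factor of lymphoid progenitors, was higher by 1.30 and 1.31 (limma adjusted p between 0.00866 and 0.0126). None of the 15 end joining genes was called in any comparison of the Pax5-/- or the cultured cells without the block. With it, 2 were higher with Pax5WT and 5 with K198R than with EV in Pax5-/- cells, where 5.03% and 9.42% of all genes were, and 2 were lower with K198R than with EV in cultured Sirt7-/- cells, where 6.12% were. Up to 3 were called in the other comparisons with the block, where 0.217% to 13.1% of all genes were. The T cell markers, which Pax5-/- progenitors can express, had 1 gene higher with Pax5WT and 4 lower with K198R than with EV of 7 tested, where 2.25% and 6.05% of all genes were called in these directions, with sums between 2400.3 and 4124 and Lck the most abundant in the table. Lower with K198R than with EV were also 2 of 5 NK cell, 2 of 4 myeloid and 1 of 3 plasma cell markers, and 4, 3 and 2 with the block. Also lower with K198R were 1 of 5 stroma, 1 of 4 progenitor, 1 of 4 dendritic cell and 1 of 2 pre-B markers. In the other direction 1 myeloid, 1 of 3 pro-B, 1 of 2 pre-B and 2 of 3 mature B markers were higher. With Pax5WT 1 NK cell, 1 plasma cell, 1 stroma, 1 progenitor and 1 pre-B marker were lower than with EV, where 1% of all genes were. NK cell markers summed to 1251 and 1128 with EV and 335 and 171 with K198R. Plasma cell markers summed to 76369 and 74259 with EV and 39073 and 31224 with K198R. The part of these in the Rag levels was not tested.

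Pax5 peaks were present at all 3 genes, with fewer listed for K198Q at Rag1. Over Rag1 and its 10 kb upstream there were 4 and 4 peaks in the Pax5WT lists, 2 and 1 with K198Q and 4 and 4 with K198R. At a −log10 q of at least 5 these were 4 and 2, 1 and 1, and 4 and 4, and the counts of Rag2 and Dntt stayed as they were. Rag2 had 1 in each of the 6 lists, and Dntt had 2 and 1, 0 and 1, and 2 and 2. Among 21951 protein-coding genes, 32.2% and 35.6% had a peak in the same window in the Pax5WT lists, 14.5% and 15% with K198Q, and 36.5% and 38.8% with K198R, and 9.98% had one in all 6, as Rag1 and Rag2 did. In both lists of a form the shares were 27.6%, 10.2% and 31.5%. The lists as a whole held 10646 and 11830, 3750 and 3957, and 12158 and 13997 peaks. The lists have 2 replicates a form and the comparison between forms has no test.

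At the Rag2 promoter the fold enrichment over input was 13.8 and 10.1 with Pax5WT, 7.54 and 3.66 with K198Q, and 9.59 and 11.1 with K198R. Both K198Q values lay below all others. The summit lay 0.022 kb upstream of the annotated start of Rag2 at the median of the lists, within the printed window.

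In the Rag1 intron, 0.897 kb inside the gene, the values were 13.9 and 9.19 with Pax5WT, 6.12 and 4.48 with K198Q, and 6.15 and 15.97 with K198R. K198Q was again lowest, although K198R replicate 1 hardly exceeded K198Q replicate 1. At the start of Rag1 a peak was listed in Pax5WT replicate 2 (7.10), K198Q replicate 1 (3.48) and both K198R lists (5.16 and 11.9). A region 1.27 kb upstream had 7.63 and 3.99 with Pax5WT and 7.504 and 10.6 with K198R, and one 3.24 kb upstream had 5.71 in Pax5WT replicate 1 and 4.77 and 5.38 with K198R, with no K198Q peak at either. A peak in the Rag1 exon was listed with Pax5WT alone, at 5.03 and 3.83.

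Outside the window, the region 25.7 kb upstream of Rag2 had 11.7 and 11.6 with Pax5WT, 4.95 and 8.98 with K198Q, and 15.8 and 18.7 with K198R. Here K198R was highest and K198Q lowest, without overlap. A neighbouring region 23.9 kb upstream had 6.65 and 5.34, 5.77 and 3.87, and 10.6 and 7.88.

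In Dntt the intron region 10.0 kb inside the gene had 6.62 and 8.24 with Pax5WT, 6.46 in K198Q replicate 2 and none in replicate 1, and 7.67 and 16.5 with K198R. A region 1.96 kb inside had 6.38 in Pax5WT replicate 1 and 5.11 and 4.85 with K198R. Dntt was thus listed with a peak in 5 of 6 lists while its transcript stayed at or under 20.3 normalized counts in these cells. Blnk, an adaptor of the pre-B cell receptor and the next gene to the left, 34.7 kb away, had 2 of the strongest nearby regions, at 10.1 to 26.5 in all 6 lists, and rose by 7.67, 6.67 and 9.51 over EV (limma adjusted p between 9.46e-06 and 0.000150).

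**Figure D5:**
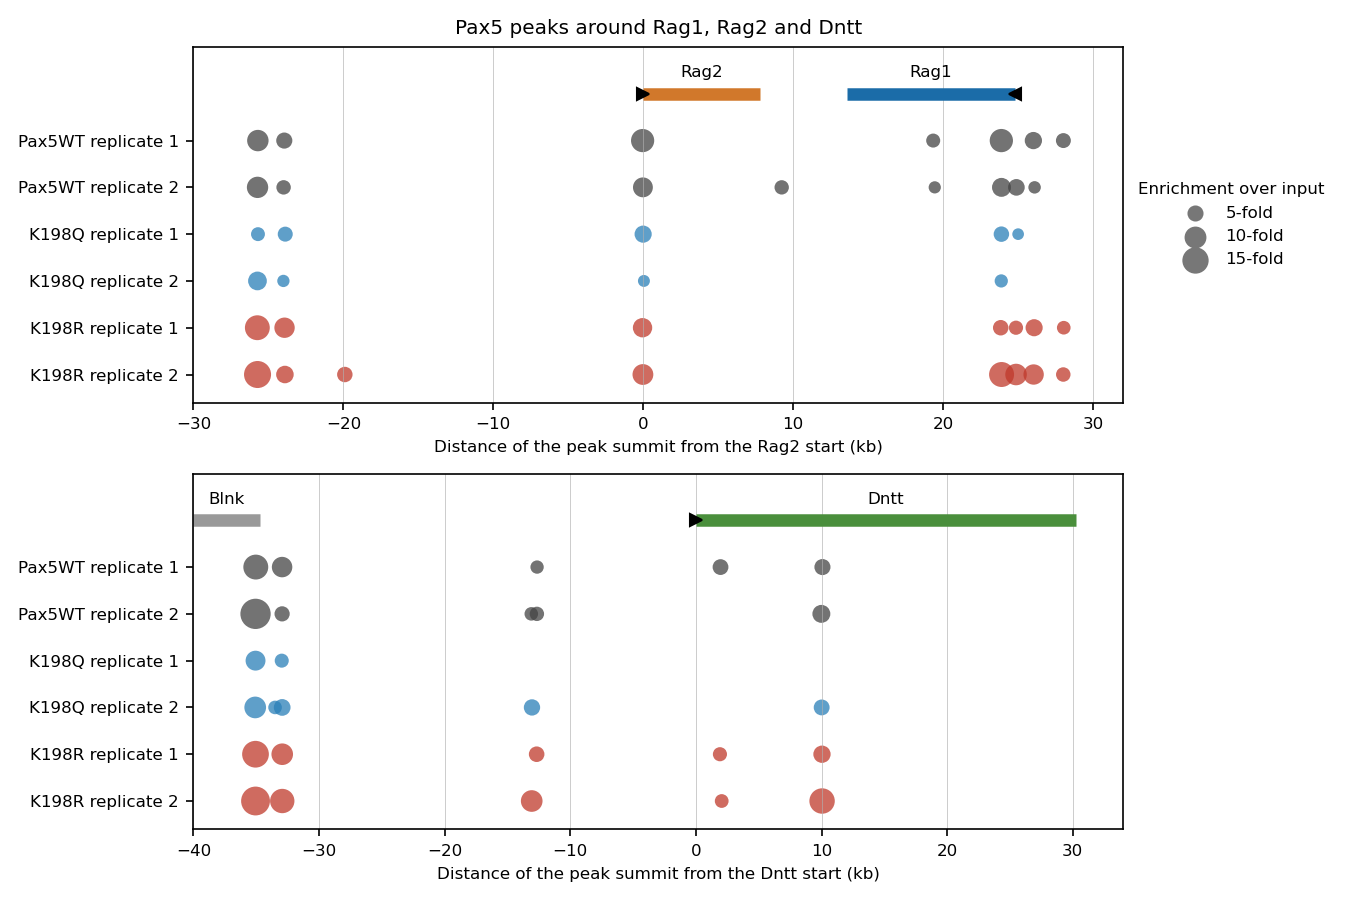
Pax5 peaks around the Rag2 start (top) and the Dntt start (bottom) in the 6 lists; the horizontal axis is the distance in kb from the start and dot area is proportional to fold enrichment over input. The Rag2 promoter and the Rag1 intron carry a dot in every list, and the K198Q lists carry the fewest dots.

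In the cultured wild-type and Sirt7-/- cells replicates of a group lay far apart, and none of the 3 genes was called in any comparison without the replicate number as a block, whereas Rag1 and Dntt were called in some with it. Rag1 was at 5503 and 8196 normalized counts in wild type with EV, and in Sirt7-/- cells at 2068.5 and 5055 with EV, 4212 and 7069.9 with Pax5WT and 1037 and 1903 with K198R. Rag2 was at 1347 and 1548, 579 and 1116, 1043 and 1245, and 465 and 789.5 in the same order. For both genes Sirt7-/- EV lay below wild-type EV without overlap, which with 2 libraries a group is a description only. Replicate 2 was the higher library in all 4 groups.

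Sirt7-/- EV minus wild-type EV was -1.05 for Rag1 (SE 0.467, limma adjusted p = 0.535) and -0.84 for Rag2 (SE 0.334, limma adjusted p = 0.460), where 0.557% of the 13651 genes were called. In Sirt7-/- cells Pax5WT differed from EV by 0.75 and 0.50 (limma adjusted p = 0.683 and 0.714, overlapping groups, 0.0366% called). K198R differed from EV by -1.20 for Rag1, without overlap, and by -0.41 for Rag2, with overlap (limma adjusted p = 0.215 and 0.592, 4.83% called). Against Pax5WT, K198R differed by -1.96 and -0.91, without overlap (limma adjusted p = 0.163 and 0.422, 0.425% called). With the block Rag1 was called as lower in Sirt7-/- EV than in wild-type EV (limma adjusted p = 0.0184), with K198R than with EV (limma adjusted p = 0.00298) and with K198R than with Pax5WT (limma adjusted p = 0.00215), where 2.11%, 11.6% and 2.3% of genes were called, and Rag2 was called in none (limma adjusted p between 0.0552 and 0.233). The Rag1 to Rag2 ratio per kilobase was 1.15 and 1.25 with K198R, below the 6 other libraries at 1.85 to 2.94.

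Dntt was at 18007 and 9072 in wild type with EV, and in Sirt7-/- cells at 10942.5 and 5253 with EV, 5101 and 1315 with Pax5WT and 6396 and 2026 with K198R. Replicate 2 was the lower library in all 4 groups, opposite to the Rag genes. Pax5WT lay below EV without overlap (-1.55, SE 0.748, limma adjusted p = 0.561), and the other groups overlapped, with differences of -0.75 for Sirt7-/- EV, -1.07 for K198R against EV and 0.47 for K198R against Pax5WT (limma adjusted p between 0.517 and 0.982). With the block Dntt was called as lower with Pax5WT (limma adjusted p = 0.0218, 1.96% of genes called) and with K198R (limma adjusted p = 0.0194) than with EV. The Pax5 transcript was at 23862 and 27134 in wild type with EV, 25995 and 37114 in Sirt7-/- with EV, 43024 and 43260 with Pax5WT, and 38690 and 45426 with K198R.

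Markers moved between these cultured groups as well. The 4 listed mature B genes in the table summed to 981 and 1264 in wild type, 4033 and 6900 in Sirt7-/- with EV, 9108 and 19478 with Pax5WT and 17329 and 38871 with K198R, with Ighd, the most abundant, reaching 25102 counts. The 6 stroma markers lay between 2582 and 4385 in 6 libraries and at 9529 and 7273 in replicate 2 of Pax5WT and of K198R, with Cxcl12 the most abundant. The T cell markers summed to 540 to 3393, and Thy1 was the most abundant. The part of these in the Rag and Dntt levels was not tested. Of the 23 Rag regulators only Satb1, a chromatin organiser, was called in this table, higher with K198R than with EV by 0.82 (limma adjusted p = 0.0322), where 2.09% of all genes were called as higher. With the block 2 were higher and 3 lower in that comparison, against 5.51% and 6.12% of all genes, and 1 was lower with K198R than with Pax5WT, against 1.38%.

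Over the 24 libraries, with log2 values centred within each table, the gene most like Rag1 among 10575 was Rag2, with a Pearson r of 0.887. It was followed by Vpreb3 (0.881), Il16 (0.876), Tifa (0.856) and Foxo1 (0.848). Rag2 was most like Rag1, Vpreb3 (0.857), Plxna1 (0.854), Chchd10 (0.853) and Cplx2 (0.845). Within tables Rag1 and Rag2 had an r of 0.996 in the Pax5-/- cells and 0.964 in the cultured cells but 0.248 in the sorted cells. Dntt was most like Tmem150b (0.948), Nlrc3 (0.943), Osbpl1a (0.942), Frmd6 (0.938) and Wee1 (0.929), and its r with Rag1 was -0.211 over the 24 libraries, -0.857 in the sorted, 0.540 in the Pax5-/- and -0.00229 in the cultured cells. Within the sorted cells the r of Rag2 was -0.124 with Vpreb3, -0.346 with Plxna1 and -0.00599 with Chchd10, and within the Pax5-/- cells that of Dntt with its 5 genes was 0.268 to 0.697. These are descriptions over libraries that share groups and tables.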

How the data were processed

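The 3 RNA-seq tables (24 libraries) and 6 Pax5 ChIP-seq peak lists were used, and 6 input samples were not used here. The RNA values are normalized counts (unit signal): the authors quantified polyA reads with Salmon against mm10, summarised them to genes with Tximeta, divided gene counts by DESeq2 size factors within each table and deposited the result. Of the values of sorted cells, 100% came out as whole reads within a tolerance of 0.01 once the size factors were undone, giving 50004827 to 55536608 reads per library. The other tables had normalized totals of 28865461 to 30520853 (Pax5-/-) and 27814214 to 30160880 (cultured), which are not raw depths. The deposited peak lists hold fold enrichment over input and −log10 q-values, which the authors obtained per replicate with Bowtie2 and MACS2 after removing duplicates and reads of low mapping quality.

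From these, log2(normalized count + 1) was fitted with limma 3.58.1 (R 4.3.3, trend), the 4 groups of a table sharing 1 fit, over genes that reached 10 normalized counts in 2 or more of the 8 libraries of a table (17649, 13345 and 13651 genes). A gene was called at a Benjamini-Hochberg adjusted p under 0.05. Fold changes are on this log2 scale and understate low genes. For sorted cells an exact permutation test compared 4 pre-B with 4 pro-B libraries, adjusted over the 3 genes. With 2 libraries against 2 an exact p cannot go below 0.333, so none is given. edgeR 4.0.16 and DESeq2 1.42.0 on the whole reads of the sorted table were alternatives, and the limma step was tested on simulated data. Floors cover counting error only. Peaks were assigned to a gene when they overlapped its GENCODE M21 body or the 10 kb upstream, and promoter starts and sequences came from RefSeq (GRCm38). Pro-B and pre-B libraries that share an identifier in the sample descriptions were paired as 1 mouse; their deviations from group means correlated at 0.0798 in wild type and 0.156 in Sirt7-/-. Same-numbered libraries of the other tables, whose replicates the methods place on separate days, correlated at 0.264 to 0.383 (Pax5-/-) and 0.156 to 0.428 (cultured). Fits with the mouse or number as a block were alternatives.

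The 3 genes and all gene lists were chosen with earlier results of these data known. Named were the 3 genes, Sirt7 and Pax5, their neighbouring genes, up to 4 called genes of a list with the largest change, and the 5 genes most like each of the 3 genes. Stage markers such as Il2ra, Kit, Igll1, Vpreb1 and Thy1 were named as checks. Part of the sorting gate is not reported here.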

Additional observations from a re-analysis of the deposited data

Results flagged for a closer look

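The Rag2 level was higher in the pre-B than in the pro-B library of both wild-type mice and lower in both Sirt7-/- mice, with a difference in the stage change of -0.47 (Sirt7-/- minus wild type, limma adjusted p = 0.959, and 0.674 with the mouse as a block), which did not pass the test. The wild-type estimate of 0.14 was not called either and ran from -0.15 to 0.43 when 1 library was left out.

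Some differences had opposite signs in Sirt7-/- and in Pax5-/- cells, with both libraries of a group on the same side in each table. For K198R against EV, Rag1 differed by -1.20 in Sirt7-/- cells and by 3.33 in Pax5-/- cells. For K198R against Pax5WT, Rag1 differed by -1.96 and 1.06, and Rag2 by -0.91 and 0.85. For Pax5WT against EV, Dntt differed by -1.55 and 2.51, the latter at 20.3 normalized counts or fewer and with Dntt having passed the filter on low values through the Pax5WT libraries. The tables were normalized separately and the differences between them were not tested.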

How the results depend on the processing

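Under the other settings 377 fold changes of the 3 genes kept their direction and side of the threshold, 25 lost a call, 11 gained one and 10 changed sign. The gained ones include Dntt for Pax5WT against EV in Pax5-/- cells, and Dntt in fits that leave 1 Sirt7-/- pre-B library. No call is read from these. The counts also include the other fits that leave 1 library in a group, from which no held, lost or gained call is read. Counts of peaks and of called genes are given further on. The stage change of Rag1 in Sirt7-/- cells (0.91) was not called without a filter on low values (0.91), after scaling to the same total (0.81), or when a log2 change of at least 1.5 was required (0.91). Without a filter Rag2 for K198Q against EV (1.27) and Rag1 for K198R against Pax5WT (1.06) in Pax5-/- cells were not called, and the former was also below that size limit (1.27), which was set for the comparisons of stages and against EV; the differences of Rag1 and Rag2 between K198R and the other forms in Pax5-/- cells all lay below it. DESeq2 called Dntt in Sirt7-/- against wild-type pre-B cells (3.88). Why these calls moved was not tested.

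With a replicate block, Rag2 fell between stages in Sirt7-/- cells by -0.33 (limma adjusted p = 0.0469). In Pax5-/- cells the block took Dntt for Pax5WT against EV (2.51) past the threshold. Dntt had passed the filter through the Pax5WT libraries, so no call is read from this. The block also added Rag2 for K198R against Pax5WT (0.85). In cultured cells it added Rag1 for Sirt7-/- against wild type (-1.05), for K198R against EV (-1.20) and against Pax5WT (-1.96), and Dntt for Pax5WT (-1.55) and K198R (-1.07) against EV. In the sign-flip test over the 4 mice, the stage changes of Rag1 (1.28) and Dntt (-5.94) could not pass, since its smallest p is 0.125. The block, by mouse between sorted stages and by replicate number elsewhere, took away no other call of the 3 genes.

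Leaving out 1 library at a time gave, in sorted cells, -0.27 to 0.37 for Rag1 and -0.13 to 0.45 for Rag2 between genotypes in pro-B cells (with -0.17 for Rag1 in another setting), -0.15 to 0.43 for Rag2 between wild-type stages (-0.10 in another), 0.67 to 1.15 for Rag1 between Sirt7-/- stages, and for Dntt 1.55 to 4.73 between genotypes in pre-B cells and 1.14 to 4.32 for the interaction. Both Dntt ranges were highest without replicate 1 of the Sirt7-/- pre-B cells, which leaves 1 library in that group. In Pax5-/- cells the ranges were 1.39 to 2.0 (Rag2, Pax5WT against EV), 1.51 to 2.18, 0.97 to 1.58 and -0.38 to 0.58 (Rag1, Rag2 and Dntt, K198Q against EV, Dntt also -0.24), 1.04 to 1.08 (Rag1, K198R against Pax5WT), and 1.34 to 1.63 and 1.14 to 1.40 (Rag1 and Rag2, K198R against K198Q). In cultured cells, none called, they were for Rag1, Rag2 and Dntt -1.70 to -0.41, -1.32 to -0.37 and -1.28 to -0.22 (Sirt7-/- against wild type), 0.11 to 1.40, 0.03 to 0.97 and -2.53 to -0.57 (Pax5WT against EV), -1.85 to -0.56, -0.88 to 0.07 and -1.90 to -0.25 (K198R against EV), and -2.40 to -1.52, -1.29 to -0.53 and -0.50 to 1.45 (K198R against Pax5WT, Dntt also -0.35).

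Widening the peak window to 25 kb upstream gave 13 peaks for Rag2 and 14 for Dntt over the 6 lists, against 6 and 8, and 100 kb on both sides gave 40, 39 and 39 for Rag1, Rag2 and Dntt, against 19 for Rag1. The count of all genes called moved from 11 to 126 (DESeq2, genotypes in pro-B), from 15 to 720 (DESeq2), 5 (edgeR) and 7 (block) in pre-B, and from 1 to 101 (DESeq2) and 0 (block) for the interaction. Without a filter it moved from 434 to 260, 123 to 73, 383 to 231 and 668 to 387 (Pax5WT and K198Q against EV, K198R against Pax5WT and K198Q), and from 76 to 44, 659 to 423 and 58 to 16 in cultured cells (genotypes, K198R against EV and Pax5WT). With the block the Pax5-/- counts became 1343, 363, 2834 (from 1324, K198R against EV), 29 (from 3, K198Q against Pax5WT), 1004 and 1749, and the cultured ones 288, 268 (from 5, Pax5WT against EV), 1588 and 314.

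Every group had 2 libraries, and Dntt in the Pax5-/- cells rested on few counts. The list counts with a block were chosen after seeing the data.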

Other observations

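Marker lists outside the V(D)J genes also differed between the sorted stages. Between wild-type stages, where 18.1% of all genes rose and 22% fell, 3 of 3 pre-B markers and 5 of 5 mature B markers rose, and 4 of 4 pro-B markers, 18 of 18 cell cycle genes and 12 of 15 T cell markers fell, with no member in the other direction. The pro-B markers include Spn, the gene of CD43, on which the stages were sorted, so its fall was set by the gate. Of 9 B lineage genes 7 rose and 2 fell, and of 4 progenitor genes 3 fell. Among 5 erythroid markers 2 fell, among 8 myeloid markers 1 rose and 2 fell, among 4 plasma cell and 4 dendritic cell markers 1 rose and 1 fell each, and none of 7 NK cell and 5 stroma markers was called. With the mouse as a block, 4 NK cell, 5 myeloid, 4 erythroid, 4 progenitor, 13 T cell and 2 dendritic cell markers fell, where 23.4% of all genes did. The other counts of these lists stayed as they were. In Sirt7-/- cells, where 16.5% of all genes rose and 19.2% fell, the counts were 3 of 3, 5 of 5, 4 of 4, 18 of 18 and 7 of 15 in the same directions, with 5 B lineage genes higher and 2 lower. Counts without replicate 2 of the Sirt7-/- pre-B cells are not read, since 1 library is left in that group. With all libraries and the mouse as a block, 6 myeloid, 3 erythroid, 2 plasma cell, 1 NK cell and 1 dendritic cell markers fell between Sirt7-/- stages. Of all genes 20.3% fell in that fit.

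Between genotypes Il2ra was lower in Sirt7-/- than in wild-type pro-B cells, at 1648 and 1593 against 3760 and 3339 normalized counts (-1.13, limma adjusted p = 0.0133). In Pax5-/- cells all 8 B lineage genes tested rose with Pax5WT and with K198R against EV and 7 of 8 with K198Q, with medians of 1.73, 2.87 and 1.63, where 2.25%, 3.87% and 0.869% of all genes were called as higher. None of the 18 cell cycle genes was called against EV without a block, and 4 were higher with K198R when the replicate number was a block, where 9.42% of all genes were.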
